A study of Mus musculus with 6 samples.

Results

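Complement and coagulation are the cascades of serine proteases and cofactors that the liver secretes into blood, and 45 of their genes were examined in the liver of ARSB-null mice. The genes were chosen by name, 19 for complement and 26 for coagulation and fibrinolysis, with earlier results of these data known. A gene was read through a probe set that carries its symbol and no other. Where several probe sets did, the brightest by its average signal was taken. By this rule 42 genes were measured, 18 of complement and 24 of coagulation, out of 19938 genes with such a probe set. Klkb1 (plasma kallikrein) was annotated only on a probe set shared with Cyp4v3, and C3 and Cpb2 are not analysed here.

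The arrays were of hepatic tissue from 3 ARSB-null mice and 3 control mice, with 1 array per liver. The ARSB-null mice were homozygous for the loss of arylsulfatase B, the lysosomal enzyme that cleaves 4-sulfate groups from chondroitin 4-sulfate and dermatan sulfate, and the controls were C57BL/6J mice. All 6 animals were untreated males of 12 weeks on the C57BL/6J background. The null allele was present in every cell type, the null mice came from a colony bred to homozygosity, and the sources do not say that the controls were littermates, so genotype and colony cannot be told apart.

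In the complement cascade, lectins, antibodies or spontaneous turnover activate proteases that cleave the component C3, and the terminal components then assemble into the membrane attack complex. In coagulation, tissue factor and the contact system set off proteases that convert prothrombin to thrombin, which turns fibrinogen into fibrin, and plasmin later dissolves it. Hepatocytes make most of the plasma proteins of both cascades, and several of them, fibrinogen among them, are acute phase proteins whose synthesis responds to interleukin 6. Properdin and the receptors for the C3a and C5a fragments are made mainly by myeloid cells.

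To show sequence before terminal genes and before fibrinogen genes, which the results set side by side, 5 promoters are given from RefSeq (GRCm38.p6). They are those of C9, C8b, C8a, Fga and Fgb, from 250 bases before to 50 bases after the annotated start. No promoter of C8g or Fgg is shown. Capitals mark the HNF1-type motif GTTAAT and the wide C/EBP-type motif TTNNGNAA on either strand. HNF1 and C/EBP factors are known activators of genes of the hepatocyte. The C9 promoter is at chr15:6445096-6445395 (plus strand), that of C8b at chr4:104766067-104766366 (plus), that of C8a at chr4:104876349-104876648 (minus), that of Fga at chr3:83025903-83026202 (plus) and that of Fgb at chr3:83049814-83050113 (minus).
C9: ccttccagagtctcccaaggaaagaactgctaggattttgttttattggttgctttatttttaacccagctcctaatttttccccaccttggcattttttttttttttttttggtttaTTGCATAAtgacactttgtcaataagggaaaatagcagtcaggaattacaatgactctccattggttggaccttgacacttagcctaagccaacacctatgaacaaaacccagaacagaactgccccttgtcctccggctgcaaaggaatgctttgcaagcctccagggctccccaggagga
C8b: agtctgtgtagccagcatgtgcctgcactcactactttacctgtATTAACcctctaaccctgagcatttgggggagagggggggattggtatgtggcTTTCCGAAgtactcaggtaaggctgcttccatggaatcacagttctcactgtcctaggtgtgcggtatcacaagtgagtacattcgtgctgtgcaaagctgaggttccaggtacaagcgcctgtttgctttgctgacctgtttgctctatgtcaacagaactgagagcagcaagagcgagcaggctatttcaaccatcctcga
C8a: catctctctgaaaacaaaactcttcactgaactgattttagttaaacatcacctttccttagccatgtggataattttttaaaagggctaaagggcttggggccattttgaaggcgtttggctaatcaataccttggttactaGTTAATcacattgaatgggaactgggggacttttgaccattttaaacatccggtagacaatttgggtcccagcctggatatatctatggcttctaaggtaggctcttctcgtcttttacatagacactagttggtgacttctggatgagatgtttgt
Fga: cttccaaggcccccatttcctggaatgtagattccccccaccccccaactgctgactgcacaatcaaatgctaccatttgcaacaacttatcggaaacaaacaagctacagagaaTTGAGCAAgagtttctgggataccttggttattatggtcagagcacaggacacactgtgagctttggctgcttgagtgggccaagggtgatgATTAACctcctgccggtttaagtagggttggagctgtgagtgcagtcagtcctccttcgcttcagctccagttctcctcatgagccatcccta
Fgb: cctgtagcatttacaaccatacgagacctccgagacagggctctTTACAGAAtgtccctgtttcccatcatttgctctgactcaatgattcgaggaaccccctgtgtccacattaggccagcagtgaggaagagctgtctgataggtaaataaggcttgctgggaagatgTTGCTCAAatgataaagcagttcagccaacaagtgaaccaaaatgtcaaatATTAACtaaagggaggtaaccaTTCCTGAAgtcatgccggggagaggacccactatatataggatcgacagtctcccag

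Among these promoters, GTTAAT was found in those of C8b, C8a, Fga and Fgb and TTNNGNAA in those of C9, C8b, Fga and Fgb. Fgg, whose promoter was searched but is not shown, had neither motif. Of the 42 measured genes, 34 had a promoter that was used, with 37 promoters in all. Member promoters on chromosome 18, where Proc lies, were not used. The motif GTTAAT was in 5 of 15 complement promoters and in 6 of 22 coagulation promoters, against 7.1% of all 32851 promoters of that length. The motif TTNNGNAA was in 7 and 11 of them, against 40.7% of all. The STAT-type motif TTCNNNGAA was in 3 and 5 (8.3% of all). The interleukin 6 type motif CTGGGAA was in 2 and 6 (11.1% of all), namely C1ra and Masp2 in complement and F9, Fgb, Fgg, Kng2, Tfpi and Vtn in coagulation. The NF-kB-type motif GGGNNTTCC was in 0 and 1 (5.82% of all), and the HNF4-type CAAAGTCCA (0.475% of all) and the C/EBP palindrome TTGCGCAA (0.183% of all) were in none. All motifs were searched on both strands. Every match of TTGCGCAA is also one of TTNNGNAA, and matches of the STAT, interleukin 6 and NF-kB types can overlap. A match describes letters and not a site in use.

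The deposited values were log2 signals, with medians of 6.496 to 6.599 over all probe sets of an array and a highest value of 14.73. The 15 measured hepatocyte markers had values between 10.91 and 14.38 in the 6 livers, all far above those medians. The brighter Arsb probe set was at 7.63, 7.46 and 7.64 in the ARSB-null livers and at 10.21, 10.23 and 10.21 in the control livers. Over all 35556 probe sets, limma placed 7 past an adjusted p of 0.05, which is 0.0197%, with 0.00562% higher and 0.0141% lower. That number depends on the procedure, with 1 higher and 3 lower under the replicate block, 14 and 14 with array weights, and 27 and 33 when only probe sets of 1 gene symbol were fitted. Nothing says whether arrays were run in batches. The number of arrays limits the precision.

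None of the 18 complement genes and none of the 24 coagulation genes was past the adjusted threshold in limma, and the lowest adjusted p was 0.531, that of C9. The medians of the families lay on different sides of 0, but that of coagulation was close to it. Of the complement genes, 15 were lower and 3 higher by their means in ARSB-null liver, and the log2 differences had a median of -0.12 and a range of -0.49 to 0.13. Of the coagulation genes, 5 were lower and 19 higher by their means, with a median of 0.05 and a range of -0.11 to 0.26. The coagulation median was 0.01 without the ARSB-null mouse numbered 5 and 0.10 without that numbered 4. Over all genes the median was -0.02, with 54.8% lower. At an unadjusted p under 0.05 in limma, 4 complement genes were lower and 0 higher, namely C9, C2, Cfp and C5ar1, against 3.19% of all probe sets lower and 2.75% higher (3.8% and 2% of all genes). This count was 2 to 3 when each array was left out in turn, while 775 to 1417 of all probe sets were lower at that limit. Of the coagulation genes, 0 were under that limit in either direction. The difference between the families was not tested.

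**Figure D1:**
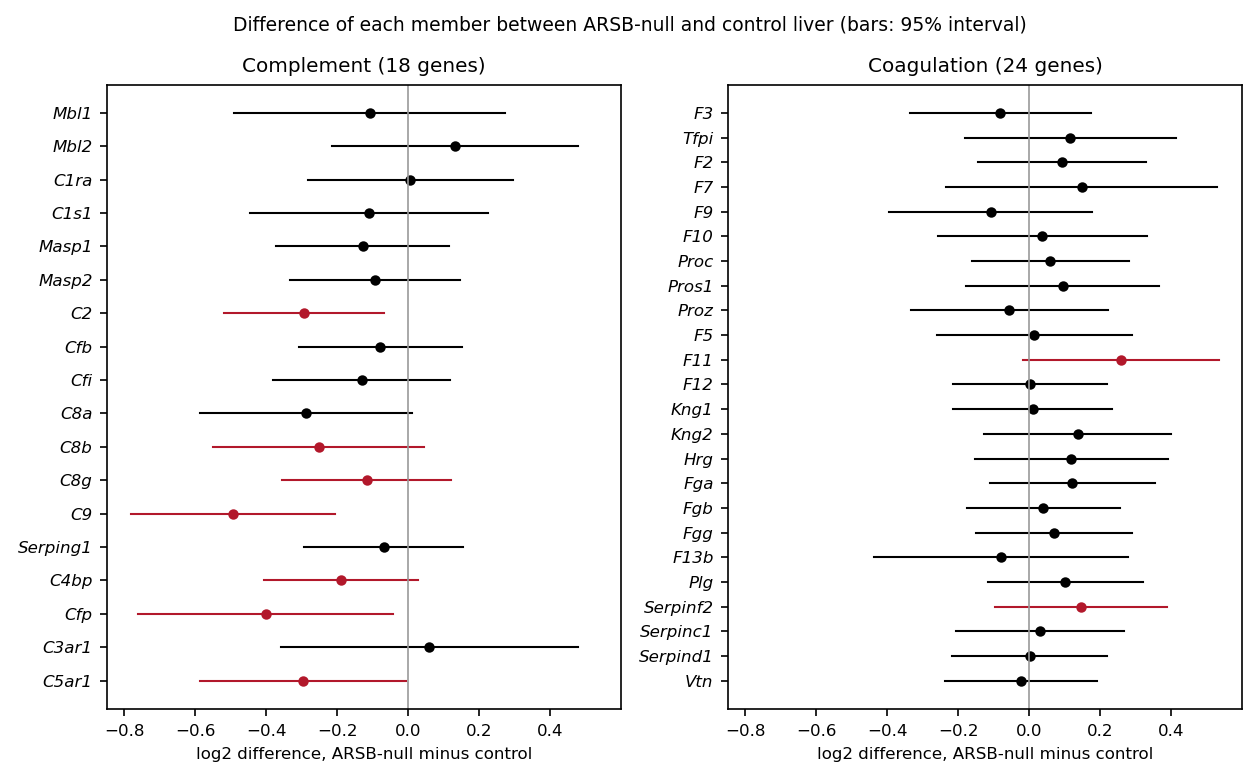
ARSB-null minus control log2 difference (horizontal axis) for 18 complement genes (left) and 24 coagulation genes (right), with 95% intervals from limma as bars. Genes whose 3 ARSB-null values do not overlap the 3 control values are in red, 7 to the left of 0 in complement and 2 to the right of 0 in coagulation.

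The mean of all 4 measured terminal components was lower in ARSB-null liver (median log2 difference -0.27), and C9 had the lowest difference of the complement genes. C9, which forms the ring of the membrane attack complex, gave log2 signals of 12.56, 12.75 and 12.44 in ARSB-null liver, against 13.20, 13.07 and 12.97 in control liver. Every ARSB-null liver lay below every control liver, and the gap between the groups was 0.22, while the values ranged over 0.31 within ARSB-null and over 0.22 within control liver. The mean was 12.59 ± 0.16 in ARSB-null and 13.08 ± 0.11 in control liver (SD, n = 3 each), 1.41-fold lower, with a log2 difference of -0.49 (95% interval -0.78 to -0.21). Its p from limma was 0.00485 unadjusted and 0.531 adjusted. In whole liver, fewer cells of a type and less RNA per cell cannot be told apart.

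C8 is made of an alpha, a beta and a gamma chain, from C8a, C8b and C8g, and it anchors the complex in the membrane. C8a gave log2 signals of 11.60, 11.86 and 11.50 in ARSB-null liver, against 12.03, 11.96 and 11.85 in control liver. The groups overlapped by the ARSB-null mouse numbered 5 alone, and the log2 difference was -0.29 (95% interval -0.59 to 0.01). Its unadjusted p from limma was 0.0564, and 0.0428 with the replicate number as a block. C8b, which lies beside C8a on chromosome 4, gave log2 signals of 12.42, 12.58 and 12.18 in ARSB-null liver, against 12.66, 12.68 and 12.59 in control liver. The groups were apart by 0.0098, and the log2 difference was -0.25 (95% interval -0.55 to 0.05). C8g, on chromosome 2, was apart by 0.0023 and had a log2 difference of -0.12, with a mean of 12.02 ± 0.02 in ARSB-null and 12.14 ± 0.11 in control liver (SD, n = 3 each). The ARSB-null mouse numbered 5 had the highest and that numbered 6 the lowest ARSB-null value for C9, C8a, C8b and C8g alike. This order was not particular to them, since Mbl1, Cfi and C4bp and several coagulation genes, F11, Fgb and Fgg among them, had it too.

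The other terminal components were read from a list of 30 further complement genes, of which 25 were measured. Hc, which encodes mouse C5, gave log2 signals of 12.42, 12.66 and 12.55 in ARSB-null liver, against 12.93, 12.87 and 12.73 in control liver. The groups did not overlap, the log2 difference being -0.30 (limma, adjusted p = 0.796). C6, which binds C5b, had a log2 difference of -0.52 (limma, adjusted p = 0.838), with values of 10.73, 11.04 and 10.22 in ARSB-null and 10.97, 11.29 and 11.30 in control liver. These overlapped, since the ARSB-null mouse numbered 5 lay above the control numbered 4. C7 had a mean of 5.82 in ARSB-null and 5.72 in control liver, both under the median of the arrays.

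**Figure D2:**
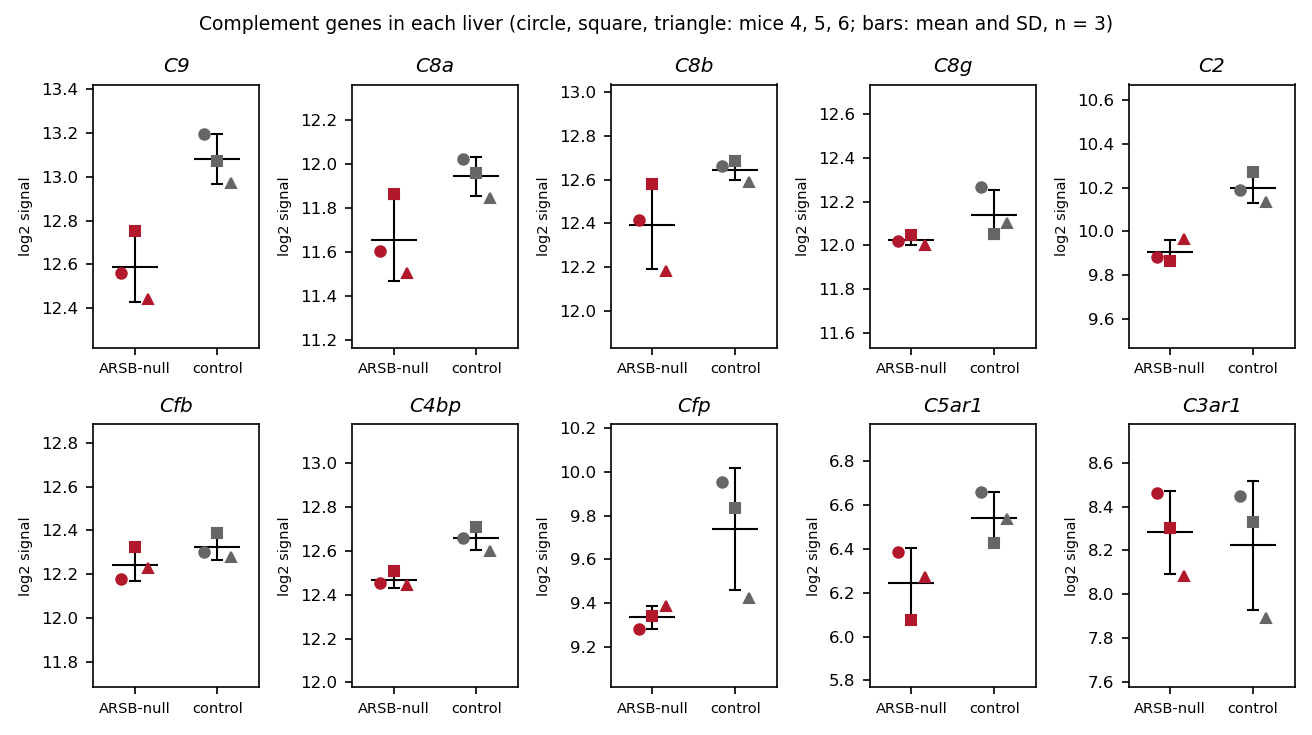
Log2 signal (vertical axis, each panel spanning the same 1.2 log2 units) of 10 complement genes in each ARSB-null liver (red, left) and each control liver (grey, right), by mouse number. Bars are the mean and SD of 3 livers. For C9 the ARSB-null values lie between 12.44 and 12.75 and the control values between 12.97 and 13.20, whereas those of Cfb and C3ar1 overlap.

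Among the 7 proteases the mean was lower in ARSB-null liver for 6, and the log2 differences were -0.29 to 0.01. C2, the protease of the classical and lectin pathway C3 convertase, gave log2 signals of 9.88, 9.87 and 9.97 in ARSB-null liver, against 10.19, 10.27 and 10.13 in control liver. The groups did not overlap, and the gap of 0.17 was wider than the range within either group. C2 was 1.23-fold lower, with a log2 difference of -0.29 (95% interval -0.52 to -0.07, adjusted p = 0.729 from limma). Cfb, its counterpart in the alternative pathway, is close to C2 on chromosome 17 and had a mean of 12.24 ± 0.08 in ARSB-null and 12.32 ± 0.06 in control liver (SD, n = 3 each). The log2 difference of Cfb was -0.08 (95% interval -0.31 to 0.15), and whether it differs from that of C2 was not tested. The C1 proteases C1ra (0.01) and C1s1 (-0.11), the lectin pathway proteases Masp1 (-0.13) and Masp2 (-0.09) and Cfi (-0.13), which inactivates C3b, overlapped between the groups. C1ra and C1s1 have close paralogs, C1rb and C1s2, with which their probe sets can share signal.

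Mbl1 and Mbl2, the mannose-binding lectins that start the lectin pathway, had log2 differences of -0.11 (95% interval -0.49 to 0.27) and 0.13 (95% interval -0.21 to 0.48). Their groups overlapped. Mbl1 ranged from 10.84 to 11.43 in the ARSB-null livers and from 11.13 to 11.27 in the control livers, so the ARSB-null values lay on either side of all control values.

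All 3 regulators had lower means. C4bp, the plasma inhibitor that binds C4b, gave log2 signals of 12.45, 12.51 and 12.44 in ARSB-null liver, against 12.66, 12.71 and 12.60 in control liver. The groups did not overlap, and the log2 difference was -0.19 (95% interval -0.41 to 0.03). Serping1, the inhibitor of C1 and of the contact proteases, had a log2 difference of -0.07 (95% interval -0.29 to 0.15). Cfp, which encodes properdin, the stabilizer of the alternative pathway convertase, gave log2 signals of 9.28, 9.34 and 9.39 in ARSB-null liver, against 9.95, 9.84 and 9.42 in control liver. The ARSB-null values lay close together below all control values, but the control numbered 6 lay only just above them. The log2 difference was -0.40 (95% interval -0.76 to -0.04, adjusted p = 0.796 from limma) and was -0.56 without that control and -0.22 with arrays weighted by their quality.

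Of both receptors, C5ar1 alone was without overlap between the groups. C5ar1, the C5a receptor of neutrophils and macrophages, gave log2 signals of 6.39, 6.08 and 6.27 in ARSB-null liver, against 6.66, 6.43 and 6.54 in control liver, with no overlap. The log2 difference was -0.30 (limma, adjusted p = 0.835), at signals near the median of the arrays, where detection is unknown. C3ar1, the C3a receptor, overlapped, with a log2 difference of 0.06 (95% interval -0.36 to 0.48). Over 11 measured markers of monocytes and neutrophils, 10 had a lower mean, as did 54.8% of all genes. The list's median signal was 5.51 to 5.65 in ARSB-null and 5.74 to 5.91 in control liver. These signals are below the medians of the arrays, where detection is unknown. Over 15 markers of Kupffer cells and macrophages, 11 had a lower and 4 a higher mean, with a median signal of 8.70 to 8.94 in ARSB-null and 8.88 to 9.24 in control liver. The smallest p values of that list pointed both ways, being those of Folr2 (-0.75), Cd163 (-0.77), Cd68 (0.53) and Adgre1 (-0.35). None of the list was past the adjusted threshold. Of the markers of Kupffer cells, Vsig4 and Itgam are also complement receptors. The log2 difference of Vsig4 was -0.35, with an unadjusted p from limma of 0.0640, and 0.0139 with the block. That of Itgam was -0.15, and its groups overlapped, as did those of Vsig4. Other integrin genes among the further complement genes went the other way, Itgax by 0.39 and Itgb2 by 0.05. The unadjusted p of Itgax from limma was 0.0467, and 0.0108 with the block, and its groups overlapped. The part of these cells in the values of Cfp and C5ar1 was not tested.

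In all, 7 of the 18 complement genes were lower without overlap (38.9%, against 6.78% of all probe sets and 8.32% of all genes), and 0 were higher. These were C9, C8b, C8g, C2, C4bp, Cfp and C5ar1, and for C8g and C8b the margin was the thin one given above. With 3 mice against 3, an exact permutation test (two-sided) of any of them gives a p of 0.1, the smallest it allows. Averaged over the 18 genes, the deviation from the control mean was -0.19, -0.09 and -0.19 in ARSB-null liver, against 0.06, 0.03 and -0.09 in control liver. The control numbered 6 was below the control mean for 16 of 18 genes, as the ARSB-null mice numbered 4 (16), 5 (12) and 6 (15) were for most. Within mice numbered 4, 5 and 6, the ARSB-null liver differed from the control by -0.25, -0.13 and -0.10 on average over the 18 genes. The count of complement genes under an unadjusted p of 0.05 was 2 without the ARSB-null mouse numbered 6, without the control numbered 4 or without the control numbered 5. C9 stayed under that limit in all 15 alternatives fitted, with p between 0.00124 and 0.0325, C2 in 13 of 15, C5ar1 in 8 of the 14 that held its probe set and Cfp in 6 of 15.

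**Figure D3:**
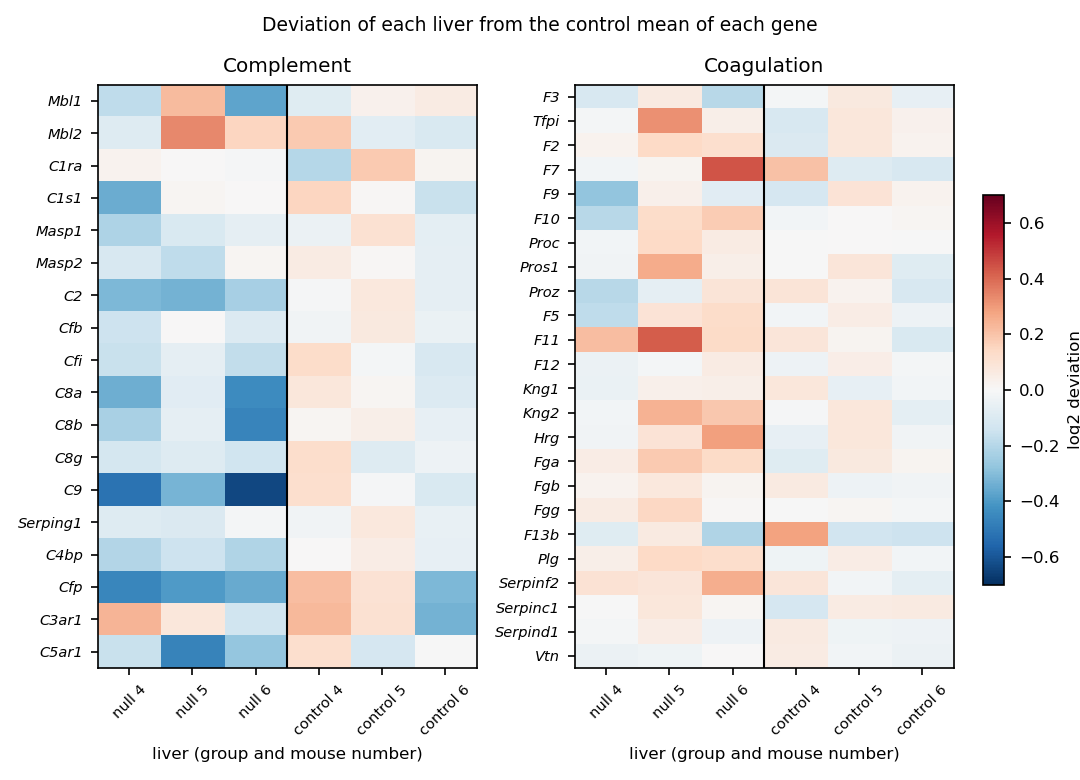
Deviation of the log2 signal from the control mean (colour, red above and blue below) for each gene (rows) in each ARSB-null liver (left of the line) and each control liver (right). Blue prevails in the ARSB-null columns of complement and in the column of the control numbered 6. Among the ARSB-null columns of complement it is darkest for C9 in mice 4 and 6 and for C5ar1 in mouse 5.

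The fibrinogen genes, for the alpha, beta and gamma chains, lie in a cluster on chromosome 3. Fga gave log2 signals of 12.91, 13.05 and 12.995 in ARSB-null liver, against 12.78, 12.93 and 12.88 in control liver. These overlapped, with a log2 difference of 0.12 (95% interval -0.11 to 0.35), and a dimmer probe set of Fga gave 0.25 (unadjusted p from limma 0.271, and 0.0442 with the block). Within mice of the same number, the difference of the brighter probe set was 0.14, 0.12 and 0.11. Fgb had 13.78, 13.83 and 13.78 in ARSB-null liver, against 13.82, 13.72 and 13.73 in control liver, with a log2 difference of 0.04 (95% interval -0.18 to 0.26). For Fgg the log2 difference was 0.07 (95% interval -0.15 to 0.29). These intervals reach from 1.08-fold lower to 1.28-fold higher for the brighter probe set of Fga and from 1.13-fold lower to 1.19-fold higher for Fgb. F13b, the carrier subunit of the factor that crosslinks fibrin, had a log2 difference of -0.08 (95% interval -0.44 to 0.28).

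Of the 7 vitamin K dependent proteins, 5 were higher and 2 lower by their means, with log2 differences of -0.11 to 0.15, and all overlapped between the groups. F2 (prothrombin) had a mean of 13.02 ± 0.06 in ARSB-null and 12.93 ± 0.09 in control liver (SD, n = 3 each), a log2 difference of 0.09. F7, F10 and Proz, which lie beside each other on chromosome 8, had log2 differences of 0.15, 0.04 and -0.06. For F7, the protease that binds tissue factor, the ARSB-null mouse numbered 6 was highest at 10.41, while the ARSB-null mice numbered 4 and 5 (9.95 and 9.99) lay within the control range of 9.85 to 10.17. F9 (-0.11) and the anticoagulant Proc (0.06) and its cofactor Pros1 (0.09) had intervals that held 0, as did F5 (0.01), the cofactor of the prothrombinase complex.

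Of the contact system, F11 had the largest difference among the coagulation genes. F11, the zymogen that activates F9, gave log2 signals of 9.29, 9.49 and 9.21 in ARSB-null liver, against 9.15, 9.09 and 8.97 in control liver. The groups did not overlap, with a gap of 0.05, and F11 was 1.20-fold higher, with a log2 difference of 0.26 (95% interval -0.02 to 0.53, adjusted p = 0.852 from limma). With the replicate number as a block, its unadjusted p from limma was 0.0481, against 0.0625 without. In the fit with the block, 4.42% of all probe sets were higher and 4.15% lower at that limit. F12 (0.00), which starts the contact pathway, and the kininogens Kng1 (0.01) and Kng2 (0.14) overlapped between the groups, as did Hrg (0.12), a histidine-rich plasma protein. Signal can be shared between the probe sets of Kng1 and Kng2, which are close paralogs.

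**Figure D4:**
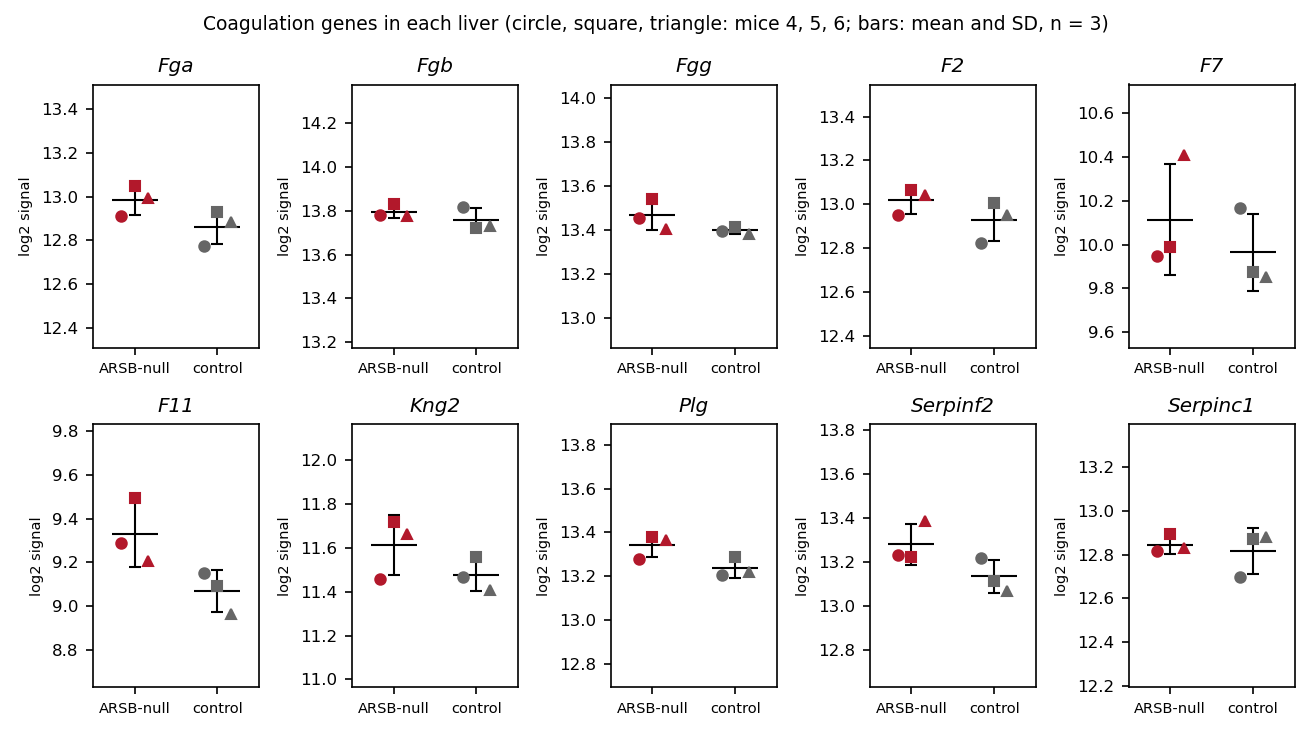
Log2 signal (vertical axis, each panel spanning the same 1.2 log2 units) of 10 coagulation genes in each ARSB-null liver (red, left) and each control liver (grey, right), by mouse number. Bars are the mean and SD of 3 livers. Only F11 and Serpinf2 of the 10 genes shown have ARSB-null values that all lie above the control values.

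Plg (plasminogen), the zymogen of plasmin, gave log2 signals of 13.28, 13.38 and 13.36 in ARSB-null liver, against 13.21, 13.29 and 13.22 in control liver. The groups overlapped by 0.01, and the log2 difference was 0.10 (95% interval -0.12 to 0.32). Serpinf2, the inhibitor of plasmin, gave log2 signals of 13.23, 13.22 and 13.39 in ARSB-null liver, against 13.22, 13.11 and 13.07 in control liver. All ARSB-null values were higher, by 0.0016 at the nearest, with a log2 difference of 0.15 (95% interval -0.10 to 0.39). The thrombin inhibitors Serpinc1 (antithrombin, 0.03) and Serpind1 (heparin cofactor II, 0.00) and the adhesive protein Vtn (vitronectin, -0.02) had differences near 0. F3 (tissue factor, -0.08) and its inhibitor Tfpi (0.12), which are made mainly outside hepatocytes, overlapped between the groups.

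Thus 2 of 24 coagulation genes were higher without overlap (8.33%, against 5.14% of all probe sets and 4.73% of all genes) and 0 were lower. The log2 difference was within 0.15 of 0 for 23 of the 24, and for 11 of the 18 complement genes, against 14301 of 19938 genes. Averaged over the 24 genes, the deviation from the control mean was -0.03, 0.11 and 0.08 in ARSB-null liver, against 0.01, 0.02 and -0.03 in control liver, so the groups overlapped. Within mice of the same number these averages differed by -0.04, 0.09 and 0.11. The ARSB-null mouse numbered 4 was below the control mean for 17 of the 24 genes, and those numbered 5 and 6 for 3 and 4.

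Beyond these members, 11 of the 25 further complement genes were higher and 14 lower by their means (median log2 difference -0.06), and none was past the adjusted threshold. Those with the smallest p pointed both ways. Fcna (ficolin A), a lectin of mouse macrophages that starts the lectin pathway, gave log2 signals of 10.05, 10.03 and 10.03 in ARSB-null liver, against 9.49, 9.58 and 9.45 in control liver. The groups lay well apart, with a log2 difference of 0.53 (95% interval 0.31 to 0.75, adjusted p = 0.280 from limma). C1qa, a chain of the recognition molecule C1q, had a log2 difference of 0.39 (limma, adjusted p = 0.568), whereas its partner chains C1qb and C1qc had -0.13 and -0.14. C4a had a log2 difference of -0.97 (limma, adjusted p = 0.426), with a mean of 8.79 ± 0.23 in ARSB-null and 9.76 ± 0.37 in control liver (SD, n = 3 each). C4a and C4b are near-identical paralogs whose probe sets can share signal, and C4b had a log2 difference of -0.20.

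Of the 23 measured further genes of coagulation and fibrinolysis, 9 were higher and 14 lower by their means (median log2 difference -0.04), and none was past the adjusted threshold. The smallest p values were those of F2r, a thrombin receptor (-0.38), Thbd, the endothelial thrombomodulin (0.30), Fgl1, a fibrinogen-like protein of hepatocytes (-0.65), and Tfpi2, a protease inhibitor (-0.25), with adjusted p of 0.656 to 0.802 from limma. Fgl1 overlapped between the groups, and the other 3 did not. The unadjusted p of Fgl1 from limma was 0.0351, and 0.0659 with the block. By their means, 6 of 8 measured platelet and megakaryocyte markers were lower in ARSB-null liver, as were 54.8% of all genes. The median signal of these markers was 6.999 to 7.13 in ARSB-null and 7.13 to 7.49 in control liver. Ppbp (-1.53), Gp9 (-0.59), Itga2b (-0.23) and Clec1b (0.16) had the smallest p of them in limma. Clec1b was 1 of the 2 markers that were higher, and no marker was past the adjusted threshold.

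**Figure D5:**
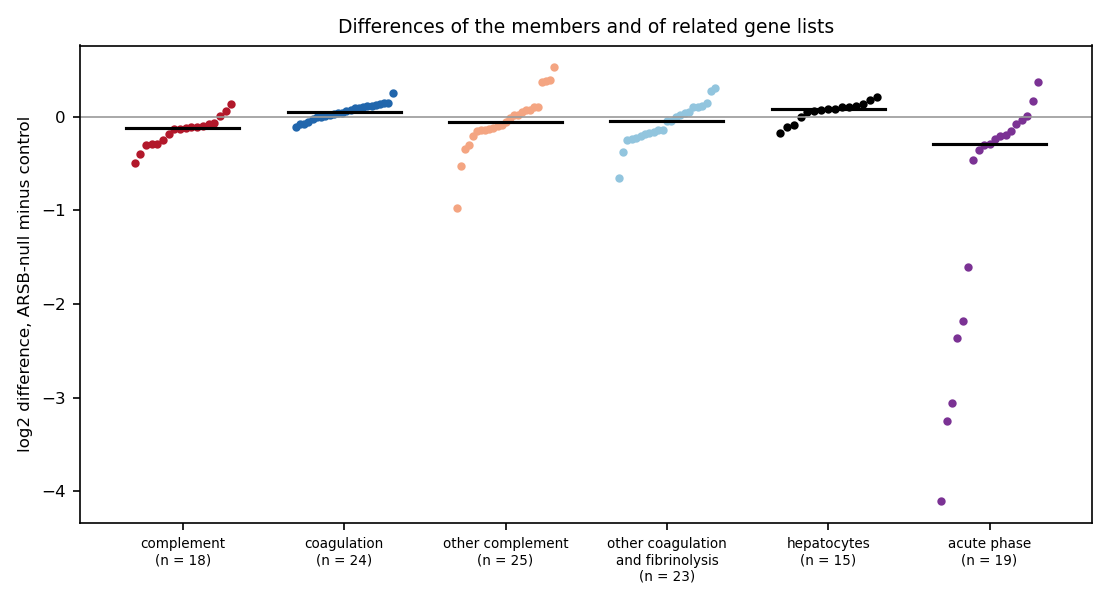
ARSB-null minus control log2 difference (vertical axis) of each gene (points, in order of size) in 6 lists, with the list median as a bar. The complement median is -0.12 and the coagulation median 0.05, against 0.08 for hepatocyte genes and -0.29 for acute phase genes, a list that reaches -4.10.

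Other genes of hepatocytes were mostly higher by their means. Of 15 measured, 12 were higher and 3 lower by their means, with a median of 0.08 and a range of -0.17 to 0.22. Of 19 measured acute phase genes, 16 were lower by their means (median log2 difference -0.29), and Saa2 (-4.10) and Saa1 (-3.25) were past the adjusted threshold. The median signal of that list was 11.76 to 11.91 in ARSB-null and 12.56 to 12.96 in control liver. Different genes stood at the median in the 2 groups, so this gap is not the difference of a gene. The part of the acute phase genes in the complement values was not tested. Of 12 measured transcription factors of the liver, 6 were higher and 6 lower by their means, and the smallest p values were those of Stat3 (0.21), Foxa1 (-0.27), Nr1h4 (-0.16) and Hnf4a (-0.17), with adjusted p of 0.875 or more from limma.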

How the data were processed

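Hepatic RNA of 3 ARSB-null and 3 control mice was hybridized to an Affymetrix mouse gene array, with 1 array per liver. The authors applied quantile normalization and summarized the probes (RMA and Partek are named in the submitters' processing notes, without versions), and deposited log2 signals for 35556 probe sets. No scanner files were used, so there are no detection calls, and quantile normalization would hide a shift common to most genes. Probe sets were named through the platform annotation, with 21789 carrying 1 symbol, 1621 several and 12146 not listed. That annotation is of the first-generation Mouse Gene ST platform, to which the row identifiers belong, although the methods name a second-generation array. All gene names rest on it. The library version and genome build behind the probe sets were not given in the sources used here.

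All probe sets were compared by limma 3.58.1 in R 4.3.3 (lmFit and eBayes, two-sided, Benjamini-Hochberg adjustment, threshold 0.05), with 95% intervals from the same fit, and the procedure was tested on simulated data. Genes named were all measured members and up to 4 genes with the smallest p of each other list. Genes outside this rule (C6, C7, C1qb, C1qc, C4b, Vsig4, Itgam, Itgax and Itgb2) were chosen after their values were seen. The members and lists were chosen with earlier results of these data known. Markers of endothelium, stellate cells and lymphocytes were also read. Of 12 endothelial genes 6 had a higher mean in ARSB-null liver (median log2 difference -0.02), of 12 stellate cell genes 10 (0.09), and of 11 measured T, NK and B cell genes 4 (-0.05).

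The mice of both groups were numbered 4, 5 and 6. Deviations from the group means correlated at 0.396, 0.159 and 0.193 between mice of the same number, all above 0.1, so a blocked fit on the number is reported where it moves a named gene across an unadjusted p of 0.05. It moved none across the adjusted threshold among the 42 genes. ARSB-null mouse 6 was closer to control mouse 5 (0.220) than to control mouse 6 (0.193), and what a shared number stands for is not stated. Beyond tissue, genotype, sex, age, background and treatment, nothing says more about the samples than that they are separate mice. Promoter sequences were taken from RefSeq.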

Additional observations from a re-analysis of the deposited data

How the results depend on the processing

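None of the 42 genes was past the adjusted threshold under any of the 15 alternative fits. Over these fits and the mean of all probe sets of a gene, which has no test, the sign changed in 45 of 671 values, in 13 genes whose difference was within 0.11 of 0 (C1s1 the farthest). For complement, the median log2 difference of -0.12 ranged from -0.18 (without the control numbered 6) to -0.10 when each array was left out in turn, and that of coagulation (0.05) from 0.01 to 0.10. The median without both arrays numbered 4 was -0.10 for complement and 0.09 for coagulation. With the replicate block, 5 complement genes were lower and 1 coagulation gene (F11) was higher at an unadjusted p under 0.05, against 4 and 0 without it. Of all probe sets, 4.15% were lower and 4.42% higher in that fit. The sources do not say that mice of the same number are pairs. The added genes were C8a and F11, and the block moved no other of the 42 across that limit, though the dimmer Fga probe set had an unadjusted limma p of 0.0442 with it and 0.271 without. At that limit the complement count, 4 in place of 0 at the adjusted threshold, was 6 with a trended and robust prior and 2 to 3 when each array was left out. The number of all probe sets lower at that limit was 1134, and 775 to 1417 when each array was left out. That number with the trended prior is not given here, so the 6 has no share to be read against.

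Over all probe sets, the adjusted counts of 2 higher and 5 lower moved to 1 and 1 with a one-way ANOVA, 1 and 3 with the replicate block, 27 and 33 with only probe sets of 1 gene symbol, 14 and 14 with array weights and 1 and 0 without both arrays numbered 4. They were 5 higher for probe sets above the median signal and 1 higher with array medians centred, where the lower counts are not given here. They were 1 higher with 3 to 6 lower when each array was left out. At an unadjusted p they were 978 and 1134. The cause was not tested.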
